A study of Mus musculus with 16 samples.

Results

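The transcripts of 9 genes of neutrophil granules and alarmins, namely S100a8, S100a9, Retnlg, Ngp, Ltf, Camp, Mpo, Elane and Ly6g, were followed in bulk RNA-seq of mouse pulmonary endothelial cells (ECs). They were taken by gene symbol from the 54532 genes measured, and all 9 were found. WT male C57/BL6J mice aged 8 weeks had received intratracheal saline (n = 4) or 10 mg/kg LPS (n = 6). LPS (lipopolysaccharide) comes from the envelope of Gram-negative bacteria and provokes lung inflammation when instilled. In a second experiment Fgfr1 loxP/loxP mice (n = 3) and Fgfr1 iΔEC/iΔEC mice (n = 3) had received 2 mg/kg LPS. The iΔEC/iΔEC mice carried VE-cadherin-CreERT2, a recombinase driven by an endothelial promoter and switched on by tamoxifen, together with the same floxed Fgfr1 alleles as the loxP/loxP mice. Tamoxifen was given to both genotypes. RNA was collected at 24 h in all groups. Cells were prepared with magnetic beads as CD31+ CD45- cells after red cell lysis, so that leukocytes, which carry CD45, were meant to be removed.

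Neutrophils make their granules in sequence while they mature in the bone marrow. Primary granules, with myeloperoxidase (Mpo) and neutrophil elastase (Elane), are filled first, when the cell is a promyelocyte, and transcription of these genes is then shut down. Specific granules, with lactoferrin (Ltf), the cathelicidin precursor (Camp) and neutrophilic granule protein (Ngp), follow, and mature cells continue to carry S100a8 and S100a9 mRNA. S100a8 and S100a9 pair to form calprotectin, an alarmin that binds calcium and metal ions, and monocytes make it as well. Retnlg encodes resistin-like gamma, and Ly6g encodes the surface protein by which mouse neutrophils are usually recognised.

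On the mouse genome GRCm38, S100a8 (chromosome 3, 90668978 to 90670035, plus strand) and S100a9 (chromosome 3, 90692632 to 90695721, minus strand) lie 22596 bases apart. Camp (109847379 to 109849617), Ngp (110419747 to 110423012) and Ltf (111019271 to 111042767) lie on chromosome 9. Retnlg is on chromosome 16 (48872621 to 48874496), Mpo on chromosome 11 (87793581 to 87804413), Elane on chromosome 10 (79886247 to 79888215) and Ly6g on chromosome 15 (75155240 to 75159126). All are annotated as protein coding. The only annotated gene that overlapped any of them was Gm11505, antisense to Mpo, with 0 reads in every library.

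C/EBP factors drive granule genes during neutrophil maturation, so the 250 bases before the RefSeq start of each gene (GRCm38.p6, matched by symbol for 9 of 9) were searched for the letters TTGCNNAA on both strands. The letters occurred in 5 of the 9 genes, compared with 9.56% of 32851 promoters. The stretches of 30 bases that hold them are printed because they are what these 5 genes share upstream, each 5′ to 3′ on the strand of the gene and with the matched letters in capitals.
S100a9 (chr3:90695939-90695968, minus strand): ggtaggctgtcTTGCTTAAgatttgggcgg
Retnlg (chr16:48872358-48872387, plus strand): agctTTCTGCAAggcattccaggcacctcc
Ngp, farther match (chr9:110419659-110419688, plus strand): gtcctggtttaTTGCCCAAacctccttgcc
Ngp, nearer match (chr9:110419778-110419807, plus strand): tttatgtcaccggcagttcTTGGGCAAggc
Ltf (chr9:111019206-111019235, plus strand): aggcaggcctaTTGGGCAAtagggtggggc
Ly6g (chr15:75155018-75155047, plus strand): ctaggaaggggTTGAGCAAgttgcctcttt
The matches began 236 bases before the start in S100a9, 246 in Retnlg, 138 and 11 in Ngp, 75 in Ltf and 232 in Ly6g. S100a8, Camp, Mpo and Elane had no such letters in this window. The PU.1 core GAGGAA, on both strands, was found in 5 of 9 genes and in 23.3% of promoters. The RUNX core TGTGGT, on both strands, was found in 1 of 9 genes and in 14.0% of promoters, and TATAAA on the strand of the gene in 2 of 9 and in 7.59%. RefSeq starts lay up to 203 bases from the gene starts in the deposited tables, so the window is that of RefSeq only.

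The saline libraries held 13478726 to 18807007 reads on genes, with 17840221 to 19043015 per LPS library, 15969575 to 17002788 per loxP/loxP library and 16642177 to 16943522 per iΔEC/iΔEC library. Levels are given as FPKM, the number of fragments scaled by the length of the gene and by a size factor of the library. They can therefore be compared between genes. The size factors in the deposited values were median-of-ratios factors to within 0.182%, and not total reads. S100a9 was the most abundant of the 9 genes in every library, followed by S100a8, Retnlg and Ngp in the same order in all 16 libraries. By mean FPKM in the LPS group S100a9 ranked 12 and S100a8 ranked 25 among all genes measured, whereas Retnlg ranked 447. The lower places were less settled. In the LPS group Camp was above Ly6g in 5 of 6 libraries, Ly6g was above Ltf in 3 of 6 and Mpo was above Elane in 4 of 6. The order of these neighbours thus varied between libraries, and their differences were not tested. In saline the order at the low end was another, with Elane (2.54 FPKM) above Mpo (1.82) in 4 of 4 libraries and Mpo above Ly6g (0.723) in 3 of 4.

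Markers of leukocytes went against the label of CD31+ CD45- cells in LPS 1 to 5. In each of these libraries the mean log2(FPKM + 1) was higher over 6 leukocyte genes than over 10 endothelial genes, by the widest margin in LPS 1 with 8.09 against 6.27, where the summed level was also higher for the leukocyte genes (2429 against 1361 FPKM). In LPS 6 the endothelial mean was the higher, at 7.40 against 6.86, as it was in every saline, loxP/loxP and iΔEC/iΔEC library. S100a8 and S100a9 had their lowest LPS values in LPS 6. Without LPS 1, 3 of 9 genes were called higher in LPS and 1 lower, against 11.5% higher and 6.13% lower of all genes tested.

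**Figure D1:**
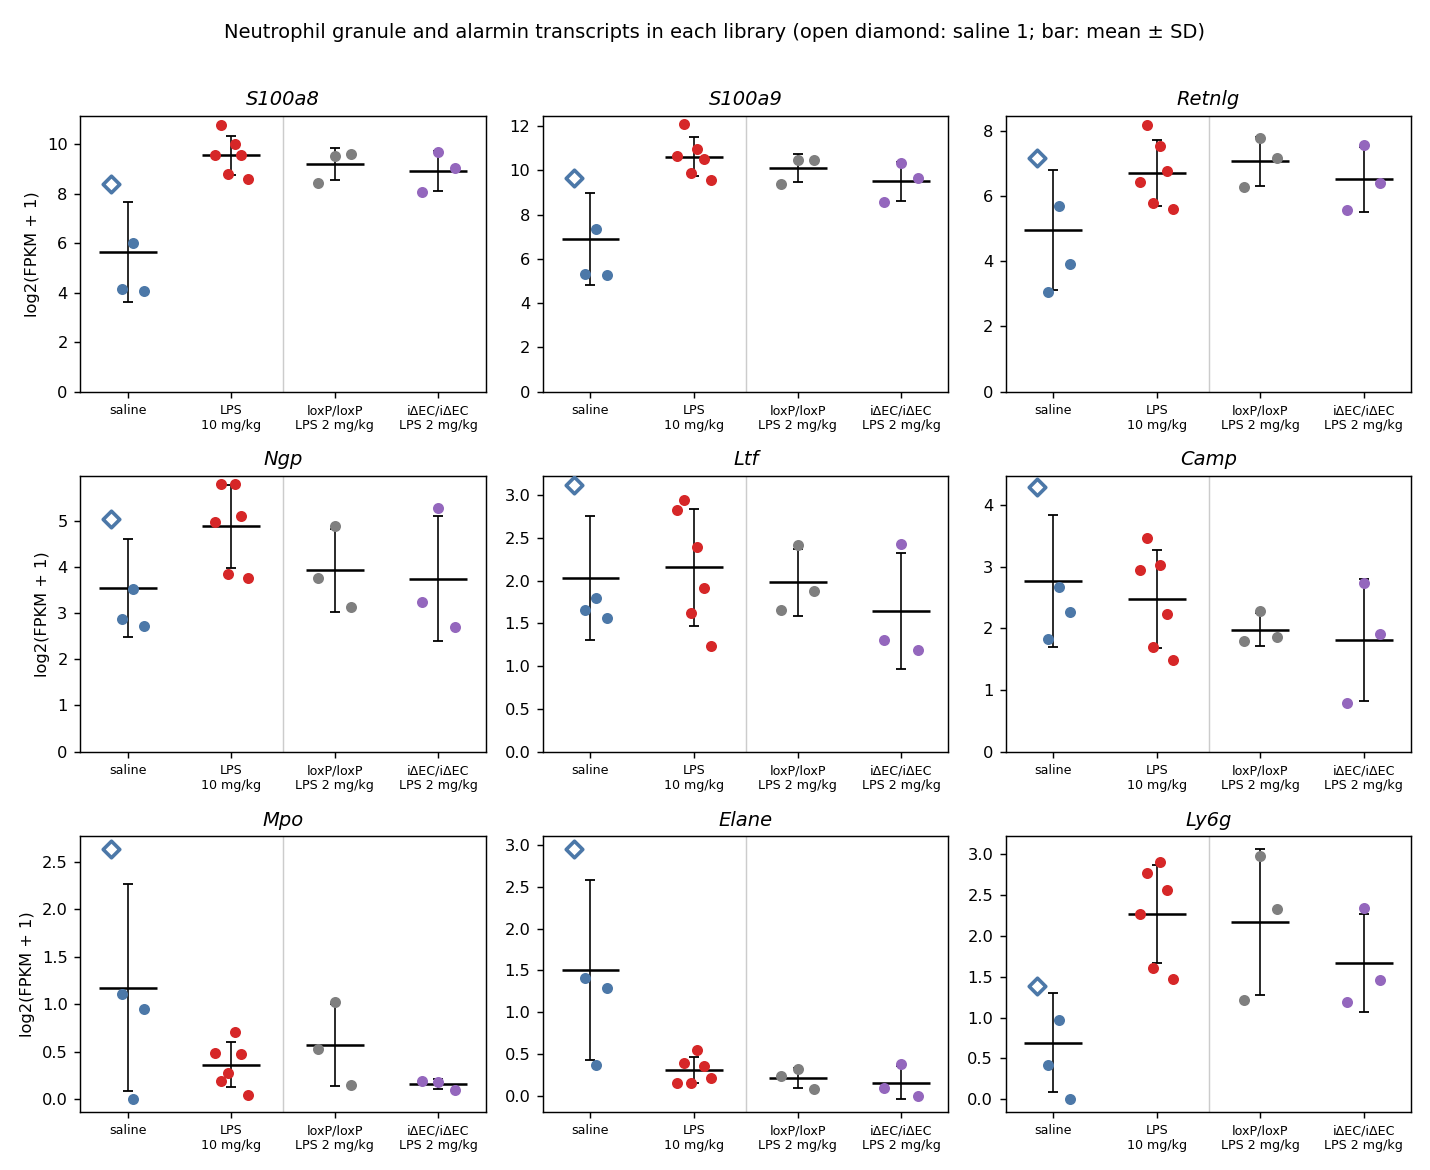
Level of each of the 9 genes, as log2(FPKM + 1), in every library of the 4 groups. Points are libraries, the open diamond is saline 1, and the horizontal bar with its error bar is the mean ± SD. The vertical line separates the 2 experiments, which were normalised separately. Saline 1 lies above the other saline libraries in all 9 panels, and loxP/loxP and iΔEC/iΔEC libraries overlap in every panel.

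The first question was how the transcripts differed between LPS and saline ECs. S100a8, S100a9 and Ly6g were higher in LPS, Elane was lower, and Retnlg, Ngp, Ltf, Camp and Mpo did not pass the test, so that 3 of 9 genes were called higher and 1 of 9 lower. Elane and Mpo had means under 0.5 FPKM in LPS and passed the filter on low values (a mean of 0.5 FPKM over all libraries) only through saline, where they were higher, so the call of Elane and the counts and median over the 9 genes are given as a description. Among the 14893 genes tested, 11.9% were called higher and 6.79% lower by the same rule, which asked for an adjusted p of no more than 0.05 in limma and for a change of 1 or more on the log2 scale in either direction. The median log2 fold change was 1.33 over the 9 genes and 0.01 over all genes tested. In bulk RNA, fewer cells of a type and less RNA per cell cannot be told apart. Saline 1 held the highest level of all 9 genes among the saline libraries, and its values are therefore given first in each series of saline values, with the comparison repeated without it.

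Of the alarmins, S100a8 stood at 332 FPKM in saline 1 and at 16.7, 62.8 and 15.96 FPKM in saline 2, 3 and 4. In the LPS libraries it had a lowest value of 389, a median of 756 and a highest value of 1767 FPKM. Every LPS library lay above every saline library, although the lowest LPS library and saline 1 were close. With Ly6g, S100a8 was among 2 of 9 genes whose LPS values all lay above saline, as did 22.7% of all genes tested. S100a8 was higher in LPS by a log2 fold change of 3.91 ± 0.77 (SE, adjusted p = 0.00152, two-sided exact permutation p = 0.00952, the smallest this design allows). S100a9 stood at 799 FPKM in saline 1 and at 38.5, 162 and 37.4 FPKM in the others, against 757, 1546 and 4355 FPKM as the lowest, median and highest LPS values. Here the groups overlapped, since 5 of 6 LPS libraries exceeded saline 1. The log2 fold change of S100a9 was 3.73 ± 0.80 (SE, adjusted p = 0.00267, exact permutation p = 0.0190). Without saline 1 the log2 fold changes were 4.82 for S100a8 (adjusted p = 6.47e-05) and 4.65 for S100a9 (adjusted p = 0.000149), and both groups of values were then apart. In that comparison 5 of 9 genes were called higher and 0 lower, against 13.2% and 7.3% of all genes tested, and 4 of 9 had all LPS values above saline, against 29.5% of all genes. Ly6g, in both counts, passed the filter there only through LPS, so the counts are a description.

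Ly6g was a transcript of low abundance. Its levels were 1.60, 0.336, 0.951 and 0 FPKM in saline 1 to 4, from 20, 7, 16 and 0 reads, against 1.78, 4.36 and 6.51 FPKM as the lowest, median and highest LPS values. All 6 LPS libraries exceeded all saline libraries, saline 1 included. The log2 fold change was 1.57 ± 0.34 (SE, adjusted p = 0.00271, exact permutation p = 0.00952), and 1.80 without saline 1. In that fit Ly6g had a saline mean of 0.429 FPKM and passed the filter only through LPS, where it was higher, so the value is a description. Ly6g belongs to a cluster of related Ly6 genes, and how reads with several alignments were counted is not given in the sources used here, so its level is uncertain to that extent.

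Retnlg and Ngp stood higher in LPS on average, but the test with all libraries was not passed. Retnlg measured 144 FPKM in saline 1 and 7.24, 51.2 and 14.2 FPKM in the other saline libraries, against 47.3, 96.3 and 292 FPKM as the lowest, median and highest LPS values. Only 2 of 6 LPS libraries exceeded saline 1. Its log2 fold change was 1.75 ± 0.76 (SE, adjusted p = 0.0712, exact permutation p = 0.105). Ngp measured 31.8 FPKM in saline 1 and 6.32, 10.5 and 5.61 FPKM in the others, against 12.5, 31.9 and 54.3 FPKM in LPS. Its log2 fold change was 1.33 ± 0.53 (SE, adjusted p = 0.0532, exact permutation p = 0.0667). Without saline 1, Retnlg was called with a log2 fold change of 2.49 (adjusted p = 0.00958) and Ngp with 1.83 (adjusted p = 0.00832), and every LPS library then lay above the saline libraries for Ngp but not for Retnlg. Ngp was also called without LPS 3 or without LPS 6, its lowest LPS libraries.

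The other specific granule genes among the 9 gave no call in either direction. Ltf measured 7.65, 2.16, 2.48 and 1.94 FPKM in saline 1 to 4, and 1.35, 3.50 and 6.68 FPKM as the lowest, median and highest LPS values. No LPS library reached saline 1, and the lowest LPS library lay under every saline library. The log2 fold change was 0.12 ± 0.39 (SE, adjusted p = 0.806, exact permutation p = 0.819). Camp, the precursor of an antimicrobial peptide, measured 18.5, 2.56, 5.39 and 3.82 FPKM in saline and 1.80, 5.21 and 10.0 FPKM in LPS. Its log2 fold change was -0.29 ± 0.50 (SE, adjusted p = 0.638, exact permutation p = 0.6), and without saline 1 it was 0.21 (adjusted p = 0.682). The direction for Camp, and under some settings for Ltf, therefore turned on which libraries or scaling were used.

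Of the primary granule genes, Elane was called lower and Mpo was not called. Elane measured 6.76, 1.65, 0.285 and 1.45 FPKM in saline 1 to 4, from 88, 36, 5 and 28 reads. In LPS it ranged from 0.110 to 0.462 FPKM with a median of 0.222, from 25 reads in 6 libraries against 157 in the 4 saline libraries. Saline 3 lay within the LPS range and the other saline libraries lay above it. The log2 fold change on the log2(FPKM + 1) scale was -1.20 ± 0.38 (SE, adjusted p = 0.0196, exact permutation p = 0.0286), a scale that understates changes of low genes, while the mean FPKM was 10.6 times as high in saline. Without saline 1 the log2 fold change was -0.72 (adjusted p = 0.0183), short of the limit for a call, and the mean was 4.70 times as high in saline. Mpo measured 5.21, 1.15, 0 and 0.935 FPKM in saline, from 236, 87, 0 and 63 reads, and 0.0307 to 0.630 FPKM in LPS with a median of 0.299. Its log2 fold change was -0.81 ± 0.39 (SE, adjusted p = 0.0997, exact permutation p = 0.124), and the mean FPKM was 6.08 times as high in saline. Without saline 1 the log2 difference was -0.32 and the mean was 2.31 times as high in saline, with no limma value because Mpo was then under the filter. Mpo passed the filter on low values only through saline 1, and Elane is low in LPS and passed through the saline libraries, so these values describe few reads.

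**Figure D2:**
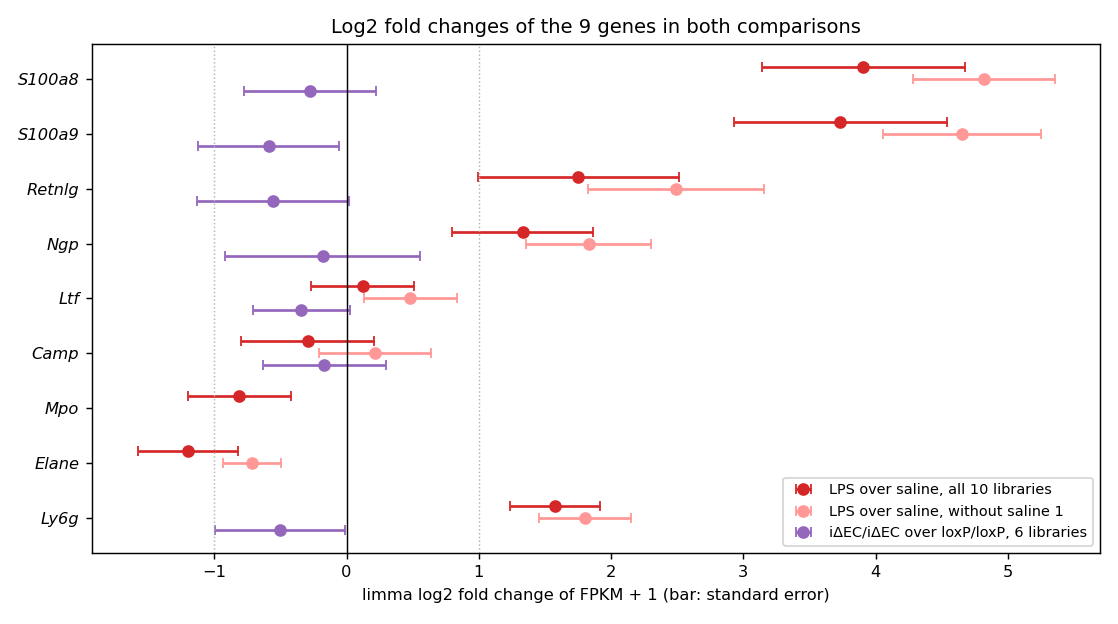
Log2 fold changes of FPKM + 1 from limma for the 9 genes, with standard errors, for LPS over saline with all 10 libraries, for the same without saline 1, and for iΔEC/iΔEC over loxP/loxP. Dotted lines mark the limit of 1 in each direction, and a gene under the filter on low values has no point. S100a8 at 3.91 and Elane at -1.20 are the ends of the range with all libraries.

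Saline 1 was examined on its own, without a test, because it stood apart. It had 5.29 times the S100a8 level and 4.94 times the S100a9 level of the next highest saline library. The corresponding factors were 4.54 for Mpo, 4.09 for Elane, 3.44 for Camp, 3.08 for Ltf, 3.02 for Ngp, 2.81 for Retnlg and 1.69 for Ly6g. The transcripts therefore stood highest in saline 1 in every granule class. It was also the library with the fewest reads on genes, at 13478726. Of the reads on genes, 0.0822% fell on the 9 genes in saline 1, compared with 0.00694%, 0.0204% and 0.00707% in saline 2, 3 and 4. The LPS libraries gave 0.0725% to 0.338%, so saline 1 lay above the lowest LPS library and under the median of 0.140%. Some other genes of the lists were also high there. Il1r2, a decoy receptor for interleukin-1, measured 59.5 FPKM in saline 1 and at most 0.763 FPKM in the other saline libraries, and Cd14, the LPS co-receptor, measured 95.7 against at most 3.42 FPKM. Fpr1, a receptor for formylated bacterial peptides, did not share this, with 2.68 FPKM in saline 1 and up to 2.66 FPKM in the others.

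Ratios between the 9 genes were taken within each library, since no scaling of libraries changes them. Ltf over S100a8 was 0.0230 in saline 1 and 0.130, 0.0396 and 0.122 in saline 2, 3 and 4, and 0.00348 to 0.00810 in LPS. Camp over Ngp was 0.583, 0.405, 0.512 and 0.681 in saline and 0.110 to 0.223 in LPS. The groups did not overlap for either ratio, and saline 1 lay on the side of the saline libraries for both. For Mpo over S100a8, given only where both genes had more than 3 reads, the log2 ratio was -5.99, -3.86 and -4.09 in saline 1, 2 and 4, and -13.6 to -10.7 in LPS 1 to 5. LPS 6 had 2 Mpo reads and saline 3 had 0. At the floor of 3 reads the log2 ratio of saline 3 would be -10.3, which bounds it only from above, so whether the groups were apart for Mpo over S100a8 cannot be read. S100a9 over S100a8 varied less, from 2.31 to 2.58 in saline and 1.94 to 2.46 in LPS, and those groups overlapped. S100a8 and S100a9 together held 77.3%, 53.7%, 69.2% and 50.9% of the reads on the 9 genes in saline 1 to 4 and 89.6% to 93.2% in LPS. These ratios were not tested.

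**Figure D3:**
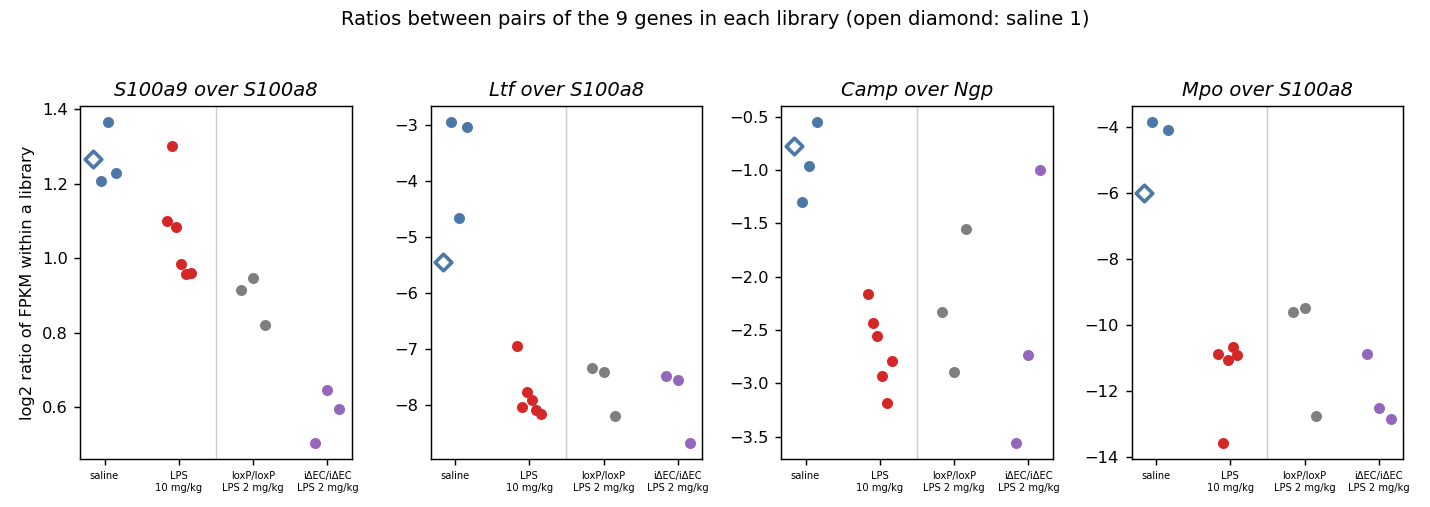
Log2 ratios of FPKM between pairs of the 9 genes within each library, by group. Points are libraries, the open diamond is saline 1, and a point is drawn only where both genes have more than 3 reads. Saline and LPS libraries are apart for Ltf over S100a8 and Camp over Ngp, with saline 1 among the saline libraries. For Mpo over S100a8 saline 3 (0 Mpo reads) and LPS 6 (2 Mpo reads) have no point.

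Other genes of the same granules and of the neutrophil surface were read from lists, whose counts stand beside the shares of 11.9% higher and 6.79% lower among all genes tested. Of the primary granule list, 2 genes other than Mpo and Elane passed the filter, and neither was called. Prtn3, proteinase 3, measured 3.40 FPKM in saline 1, 0.411 to 0.809 FPKM in the other saline libraries and 0.222 to 1.44 FPKM in LPS (log2 fold change -0.11, adjusted p = 0.788). Without saline 1 the sign for Prtn3 turned, again with no call. Ctsg, cathepsin G, measured 3.59 FPKM in saline 1, 0.163 to 0.831 FPKM in the others and 0.0597 to 0.947 FPKM in LPS (log2 fold change -0.48, adjusted p = 0.240). Ctsg passed the filter on low values only through saline 1, where it was higher, so its values are a description. Prtn3 and Ctsg both had their highest value in saline 1, as Mpo and Elane did.

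Of 7 further specific granule genes, 6 were called higher and 0 lower, with a median log2 fold change of 2.75. Lcn2, which encodes the siderophore-binding protein lipocalin 2, rose from 3.53 to 21.5 FPKM over the saline libraries to 741 to 1818 FPKM in LPS (log2 fold change 7.25, adjusted p = 8.63e-07). Hp, haptoglobin, rose with a log2 fold change of 4.72 (adjusted p = 7.28e-05), Chil3 with 2.76 (adjusted p = 1.66e-05) and Pglyrp1, a peptidoglycan recognition protein, with 2.75 (adjusted p = 0.000159). Lcn2, Hp and Chil3 are known in other cell types too, Chil3 being counted among monocyte markers below. Ltf, Camp and Ngp, in the same list, were thus the genes with no call together with 1 other.

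All 7 gelatinase granule and secreted genes other than Retnlg were called higher, from 2.19 to 5.23 on the log2 scale. Among them Il1f9, an interleukin-1 family cytokine, rose by 5.23 (adjusted p = 1.53e-05), Slc11a1, a metal transporter of phagosomes, by 5.12 (adjusted p = 5.26e-06) and Wfdc21 by 4.90 (adjusted p = 5.75e-06). In the stefin A family of cysteine protease inhibitors, 4 of 5 tested genes were called higher, led by Stfa2l1 at 3.54 (adjusted p = 0.000527) and Gm5483 at 3.02 (adjusted p = 7.73e-05). The stefin A genes are near copies of each other, so reads may be split among them. Of the 4, Stfa2 and Stfa3 had saline means under 0.5 FPKM and passed the filter only through LPS, as did Olfm4 among the 6 specific granule genes called, so these counts are a description. Of 9 surface receptors other than Ly6g, 8 were called higher. Fpr2 rose by 5.72 (adjusted p = 4.46e-07), Fpr1 by 5.63 (adjusted p = 2.29e-07), Il1r2 by 4.59 (adjusted p = 0.00225) and Csf3r, the receptor of granulocyte colony-stimulating factor, by 3.09 (adjusted p = 0.00241).

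Among 6 granulocyte transcription factors 5 were called higher. Spi1, which encodes PU.1, rose by 4.46 (adjusted p = 5.59e-06), Cebpb by 4.29 (adjusted p = 0.000207), Cebpd by 1.84 (adjusted p = 0.0112) and Cebpa by 1.54 (adjusted p = 0.000595), and Gfi1, a repressor needed for granulocyte maturation, had 0.39 (adjusted p = 0.0675). Of 6 genes for receptors that bind or transmit S100a8 and S100a9, 4 were called higher. Cd14 rose by 5.76 (adjusted p = 0.000268), Cd33 by 3.27 (adjusted p = 0.000291) and Lrp1 by 2.02 (adjusted p = 0.000173), while Ager, the receptor of advanced glycation end products and an abundant gene of alveolar type I cells, had -0.52 (adjusted p = 0.249). Of 5 inhibitors of granule proteases, 4 were called higher. Slpi, an inhibitor of elastase, rose by 3.84 (adjusted p = 0.000155), Cstb by 2.94 (adjusted p = 3.74e-06), Serpina3n by 2.35 (adjusted p = 2.69e-05) and Serpina3g by 2.05 (adjusted p = 2.64e-06). Serpinb1a, an intracellular inhibitor of elastase and cathepsin G, had -0.73 (adjusted p = 0.0124), which is past the limit for p but not for the fold change. Without saline 1, the genes other than the 9 gave 6 calls among specific granule genes, 7 among gelatinase genes, 8 among receptors and 5 among transcription factors, all of them higher.

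**Figure D4:**
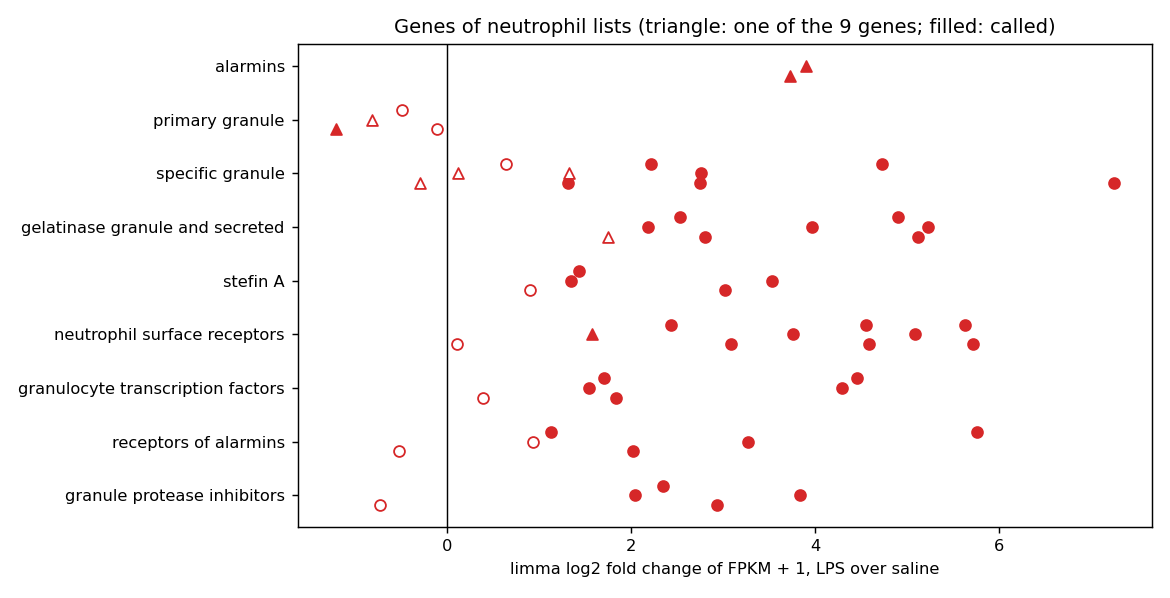
Log2 fold change of FPKM + 1, LPS over saline, for each tested gene of the neutrophil lists. Triangles are the 9 genes, circles are the other genes of a list, and filled marks are called. Elane at -1.20 is the filled triangle on the left, S100a8 and S100a9 are the triangles near 4, and Lcn2 at 7.25 is the circle farthest to the right.

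Markers of several other cell types were also called between LPS and saline, some higher and others lower. Their part in the results on the 9 genes was not tested. All 6 leukocyte genes were called higher. Their summed level was 320 FPKM in saline 1 and 156, 106 and 136 FPKM in saline 2, 3 and 4, and 1009 to 2439 FPKM in LPS, mostly with Tyrobp as the most abundant gene. Ptprc itself, the gene of CD45, rose by 2.19 on the log2 scale (adjusted p = 0.000112). All 8 monocyte genes were called higher, with a sum of 164, 99.3, 148 and 76.9 FPKM in saline and 633 to 1442 FPKM in LPS, with Chil3 as the most abundant gene except in LPS 2 (Plac8). Of 8 macrophage genes 6 were called higher, with a sum of 19.6 to 34.1 FPKM in saline and 417 to 966 FPKM in LPS, where Csf1r was the most abundant gene except in LPS 5 (C1qb), and Marco was listed at 0 in saline 1. No gene of the leukocyte or monocyte list was at 0 in any library. Among the markers of other granulocytes and mast cells, 0 of 4 tested genes were called, but their sum was 18.6 FPKM in saline 1 and 3.40 to 6.75 FPKM in the other saline libraries, led in saline 1 by Prg2. Epx, which defines eosinophils, was at 0 in saline 3 and in 3 LPS libraries.

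The lymphocyte list gave 3 of 5 genes lower, with sums of 24.0 to 134 FPKM in saline and 12.1 to 48.4 FPKM in LPS, with Cd79a as the most abundant gene. Platelet genes gave 3 of 4 higher, with sums of 18.3 to 45.9 FPKM in saline and 46.7 to 140 FPKM in LPS, and Gp1bb was at 0 throughout. Erythroid genes gave 2 of 3 higher, with 5.81 to 24.5 FPKM in saline, the highest in saline 1, and 20.1 to 68.6 FPKM in LPS. Epithelial genes gave 2 of 6 lower, with sums of 995 to 2601 FPKM in saline, the highest again in saline 1, and 193 to 721 FPKM in LPS, with Sftpc as the most abundant gene. Fibroblast genes gave 0 of 4 in either direction, and proliferation genes 2 of 4 higher, of which Mki67 passed the filter only through LPS, with sums of 0.842 to 3.20 FPKM in saline and 6.65 to 15.6 FPKM in LPS. All 10 endothelial markers were detected in every library, and their sum was 5236, 3160, 3870.0 and 3253 FPKM in saline 1 to 4 and 1361 to 3254 FPKM in LPS, with Cldn5 as the most abundant gene. Of these 10 genes 4 were called lower, among them Kdr, a receptor of vascular endothelial growth factor (log2 fold change -1.63, adjusted p = 0.000662), whereas Pecam1, the gene of CD31, had -0.17 (adjusted p = 0.516). Without saline 1 the genes called lower numbered 3 of 10 endothelial, 1 of 5 lymphocyte and 1 of 6 epithelial genes, and the counts of leukocyte, monocyte, macrophage, platelet, erythroid and proliferation genes called higher were the same.

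The second question was whether endothelial deletion of Fgfr1 changed these transcripts in LPS-treated mice. Fgfr1 measured 2.90, 2.91 and 2.60 FPKM in loxP/loxP 1, 2 and 3 and 0.682, 1.41 and 1.15 FPKM in iΔEC/iΔEC 1, 2 and 3, so the groups were apart as labelled (log2 fold change -0.88, adjusted p = 0.962, exact permutation p = 0.1, the smallest that 3 against 3 allows). Of the 9 genes 7 passed the filter, and 0 of them were called, against 0% of all 14945 genes in each direction by limma. At an unadjusted p under 0.05 stood 661 genes (4.42%), and 0 of the 7, without regard to the replicate number. With the replicate number as a block, 1154 genes (7.72%) stood there, and 3 of the 7, namely S100a9, Retnlg and Ly6g, and the lowest adjusted p of the 7 was 0.586 in limma. The median log2 fold change was -0.34 over the 7 genes and 0.01 over all genes tested. The 2 genotypes overlapped for 9 of the 9 genes, while they were apart with iΔEC/iΔEC above for 6.02% and below for 4.09% of all genes.

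S100a8 measured 348, 743 and 791 FPKM in loxP/loxP 1, 2 and 3 and 266, 818 and 528 FPKM in iΔEC/iΔEC 1, 2 and 3 (log2 fold change -0.28 ± 0.50 SE, exact permutation p = 0.7). S100a9 measured 657, 1433 and 1398 FPKM against 377, 1280 and 798 FPKM (-0.59 ± 0.53 SE, exact permutation p = 0.5). In both genotypes replicate 1 was the lowest, and the spread within a genotype exceeded the difference between the genotypes. Retnlg measured 76.5, 217 and 141 FPKM against 46.3, 187 and 84.1 FPKM (-0.56 ± 0.57 SE, exact permutation p = 0.5), and Ly6g 1.31, 6.85 and 4.04 FPKM against 1.29, 4.07 and 1.76 FPKM (-0.50 ± 0.49 SE, exact permutation p = 0.5). Adjusted p was 0.962 or above for all 7 genes tested.

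Ngp measured 12.5, 28.7 and 7.72 FPKM in loxP/loxP and 8.49, 37.7 and 5.53 FPKM in iΔEC/iΔEC, and replicate 2 was the highest of each genotype. Ltf measured 2.15, 4.34 and 2.67 FPKM against 1.48, 4.36 and 1.28 FPKM, and Camp 2.48, 3.85 and 2.62 FPKM against 0.721, 5.68 and 2.75 FPKM. The log2 fold changes were -0.18 for Ngp, -0.34 for Ltf and -0.17 for Camp. Mpo measured 0.447, 1.03 and 0.113 FPKM, from 26, 58 and 7 reads, against 0.142, 0.138 and 0.0717 FPKM, from 8, 8 and 4 reads. Elane had 3, 4 and 1 reads in loxP/loxP and 1, 5 and 0 reads in iΔEC/iΔEC. The genotypes overlapped for Mpo (exact permutation p = 0.3), and for Elane a difference was not detectable at this depth.

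Libraries with the same replicate number deviated together in this experiment, so the numbers were read as pairs. The sample titles give a replicate number only and do not state pairs, so the pairing is taken from these same data. All 9 genes were lower in iΔEC/iΔEC in pair 1, 4 of 9 in pair 2 and 8 of 9 in pair 3. No share of all genes stands beside these counts of single pairs, and Elane enters them from very few reads, so they are a description. Lower in 3 of 3 pairs were S100a9, Retnlg and Ly6g of the 7 genes tested, and also Mpo, which was under the filter. Ly6g was nearly level in pair 1, at 1.31 FPKM in loxP/loxP and 1.29 FPKM in iΔEC/iΔEC, from 21 and 20 reads. Of all genes tested, 12.9% were lower in 3 of 3 pairs. With the pair as a block, 0 genes were called as well. The ratio of S100a9 to S100a8 was 1.89, 1.93 and 1.77 in loxP/loxP and 1.42, 1.56 and 1.51 in iΔEC/iΔEC, so that the genotypes did not overlap in this ratio, although they overlapped for each gene alone. Ltf over S100a8 overlapped, at 0.00337 to 0.00617 in loxP/loxP and 0.00243 to 0.00555 in iΔEC/iΔEC. Camp over Ngp overlapped as well (0.134 to 0.339 and 0.0848 to 0.498). So did Ly6g over S100a8 (0.00377 to 0.00921 and 0.00333 to 0.00497) and Mpo over S100a8 (log2 ratio -12.8 to -9.49 and -12.8 to -10.9). None of these ratios was tested between the genotypes, and no share over all gene pairs stands beside them. The share of reads on the 9 genes was 0.0668%, 0.150% and 0.148% in loxP/loxP and 0.0415%, 0.144% and 0.0830% in iΔEC/iΔEC.

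**Figure D5:**
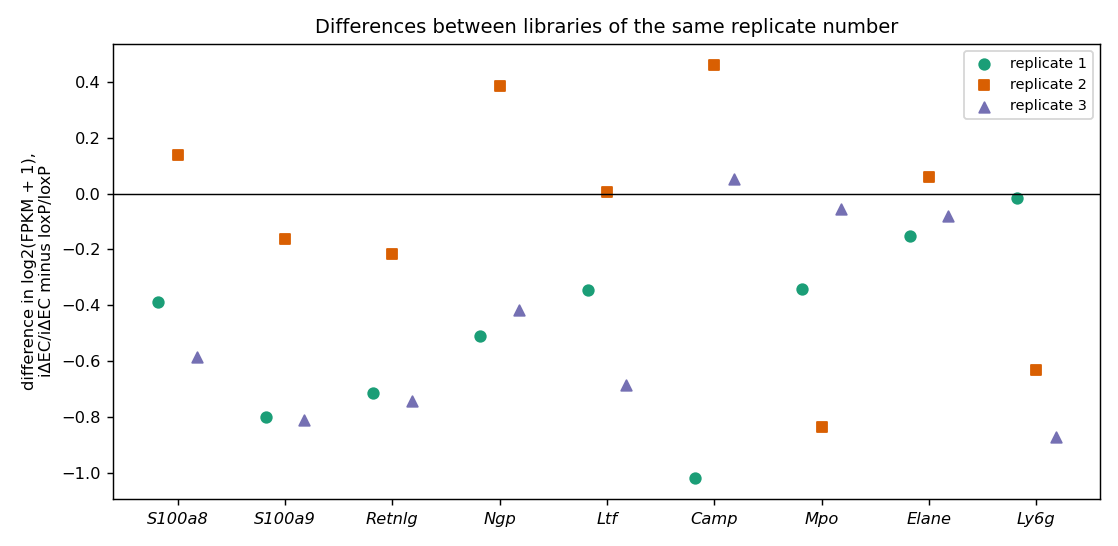
Difference in log2(FPKM + 1), iΔEC/iΔEC minus loxP/loxP, between libraries of the same replicate number, for the 9 genes. Each mark is a pair, and the line at 0 means no difference. Pairs 1 and 3 lie under 0 for 9 and 8 genes, and pair 2 for 4 genes.

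None of the listed genes was called in the second experiment. The leukocyte sum was 628, 855 and 758 FPKM in loxP/loxP and 434, 1023 and 628 FPKM in iΔEC/iΔEC, the monocyte sum 316, 463 and 626 against 233, 745 and 554 FPKM, and the macrophage sum 222, 297 and 323 against 160, 365 and 273 FPKM. As with S100a8 and S100a9, the first replicate of each genotype had the lowest of these sums. The neutrophil surface receptor sum behaved likewise, at 310, 484 and 685 against 203, 516 and 415 FPKM. The endothelial sum was 2854, 2278 and 2380 against 3608, 2570 and 3300 FPKM, and within each genotype it was highest in replicate 1. The epithelial sum was 765, 1427 and 2584 FPKM against 350, 930 and 716 FPKM, lower in iΔEC/iΔEC in each pair, with a median log2 fold change of -0.90 over 6 genes. The part of these lists in the values of the 9 genes was not tested.

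The levels of 7 of the 9 genes were compared between libraries of the same group. After the group mean was subtracted from log2(FPKM + 1), the correlation over 15 libraries without saline 1 ranged from 0.676 (S100a8 with Ngp) to 0.996 (S100a8 with S100a9) for the 7 genes that passed the filter in both experiments. S100a8 and S100a9 followed Retnlg (0.957 and 0.955) more closely than Ltf (0.714 and 0.729). Among 14185 genes, those whose deviations were most like the mean of the 7 were Stfa2l1 (r = 0.971), Wfdc17 (0.948), Hp (0.945), Mrps30 (0.923), B9d2 (0.918), Anxa1 (0.917), Prr13 (0.915), Zswim7 (0.914), Wfdc21 (0.913) and S100a6 (0.913). These correlations are a description over libraries that share the scaling of their table. Stfa2l1, Hp and Wfdc21 stand in the neutrophil lists above, and Anxa1 encodes annexin A1, an abundant neutrophil protein that dampens inflammation, whereas Mrps30, a mitochondrial ribosomal protein, had a log2 fold change of only 0.24 in LPS (adjusted p = 0.0995).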

How the data were processed

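RNA of bead-isolated CD31+ CD45- lung cells was sequenced in 16 libraries. Per the submitters' processing notes, reads were aligned to GRCm38 with HISAT2 2.0.5 and counted with featureCounts 1.5.0-p3. Strandedness, trimming and treatment of reads with several alignments are not given in the sources used here. The authors deposited FPKM and gene lengths, in 1 table per experiment. FPKM times length gave whole read numbers for 100% of values (tolerance 0.01), so the reads behind each value are known, and 3 reads were taken as the floor. Intervals and floors would cover counting error only, and whether molecular identifiers were used is not given in the sources used here. The 11 symbols of the second table that could not be read were taken from the first.

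FPKM was rescaled by median-of-ratios factors (largest change 0.182%), and log2(FPKM + 1) was compared within each table with limma 3.58.1 in R 4.3.3 (eBayes with trend), leaving out genes whose mean was under 0.5 FPKM. A call required an adjusted p (Benjamini-Hochberg, all genes tested) no higher than 0.05 and a log2 change of 1 or more in size. For each of the 9 genes an exact permutation test (two-sided) was added, whose smallest p is 0.00952 for 4 against 6 libraries, 0.0238 for 3 against 6 and 0.1 for 3 against 3. P-values measure the spread between libraries as labelled. No library was a copy of another of its group (chi-square per gene of at least 5.06). How large a change must be to be called by this rule was not tested for either comparison. Same-numbered libraries deviated together in the second experiment (correlations 0.178 to 0.248) and not in the first (-0.170 to 0.069). From each list the text may name the 4 most abundant genes and those with the highest and lowest fold change among those tested, and the 10 genes most like the members. The members and lists were chosen with earlier results of these data known. Genes named outside this rule (Marco, Epx, Gp1bb, Gm11505, Olfm4) were chosen after their values were seen. The result of 1 gene is not reported here. Tables and figures used Python 3.11.15, pandas 2.3.3, numpy 2.4.6, scipy 1.17.1 and matplotlib 3.10.9.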

Additional observations from a re-analysis of the deposited data

Results flagged for a closer look

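Of the values of the 9 genes in the saline and LPS groups, 18 sets of values were screened for a library distant from its group, where chance gives about 1 in 20, and 1 was found. Ltf in saline 1 stood at 3.11 on the log2(FPKM + 1) scale, against 1.80 in the nearest and 1.56 in the lowest other saline library, a gap of 0.844 of the range of the group. Without saline 1 the log2 fold change of Ltf in LPS over saline was 0.48 (adjusted p = 0.261 in limma) in place of 0.12.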

How the results depend on the processing

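S100a8, S100a9 and Ly6g were called higher in LPS under every alternative run. Log2 fold changes were 3.39 to 4.82 for S100a8, 3.19 to 4.65 for S100a9 and 1.34 to 3.50 for Ly6g. The run on FPKM as deposited repeated the main fit in this comparison. Without saline 1, and with a filter at a mean of 1 FPKM, Ly6g passed the filter only through LPS, so those calls are a description. Of the 9 genes 3 to 6 were called. They numbered 3 with no filter on low values, against 7.33% of all genes, the lowest share. With no limit on the fold change they numbered 4, against 53.2%, the highest share. With scaling on the endothelial list 5 were called higher, against 30.9% of all genes. The 6 came with limma-voom, which called 29.3% of all genes. Elane lost its call with scaling on the endothelial list (-0.90), with no filter on low values (adjusted p = 0.0563 in limma), with the replicate number as a block (adjusted p = 0.0587) and without saline 1 (-0.72). Retnlg and Ngp gained a call with endothelial scaling (2.49 and 2.04) and with limma-voom on the recovered reads (1.97 and 1.51). Without saline 1 they gained it as well (2.49 and 1.83), and Ngp also without LPS 3 (1.54) or LPS 6 (1.56). Mpo passed the limits only without saline 3, which had 0 Mpo reads (-1.20, adjusted p = 0.0129 in limma). Mpo and Elane had LPS means under 0.5 FPKM and passed the filter only through saline. Their calls, whether kept, gained or lost, are therefore a description. The sign of Ltf turned with scaling on total reads (-0.026), and leaving out 1 library in turn gave -0.036 to 0.48. The sign of Camp turned with endothelial scaling (0.35) and the replicate block (0.016), and leaving out 1 library gave -0.60 to 0.21. The cause of these turns was not tested.

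All genes called in LPS numbered 2779 and moved to 4793 with endothelial scaling (4608 higher, 185 lower, median shift 0.60), 4171 with a pseudocount of 0.1, 7928 with no limit on the fold change and 4363 with limma-voom. With libraries scaled by their total reads 1373 were higher and 1440 lower (median shift -0.14), and quantile normalisation 1366 and 1326, against 1768 and 1011. In the first experiment same-numbered libraries did not deviate together, and the replicate block gave 2988 calls. In the second, where they did, the block changed no call, with 0 genes called and an adjusted p of 0.586 in limma for Retnlg (log2 fold change -0.56). Leaving out 1 library there turned the sign of Ngp (-0.95 to 0.34), Camp (-0.63 to 0.35) and S100a8 (-0.66 to 0.16), with 0 calls. Depth limits Mpo and Elane, which rest on few reads in LPS.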
